A study of Mus musculus with 12 samples.

Results

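The TNF superfamily comprises secreted or membrane-bound ligands and the cell-surface receptors they engage. Its members here were every gene whose symbol starts with Tnfsf or Tnfrsf, together with Tnf, Lta, Ltb, Ltbr, Cd40, Cd40lg, Fas, Fasl, Cd27, Cd70 and Ngfr. This gave 43 of the 20774 genes listed, namely 17 ligands, 25 receptors and Tnfsfm13, the read-through gene that joins Tnfsf12 and Tnfsf13. The rule itself reads gene symbols only.

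RNA of whole lung was sequenced in 12 libraries, 3 per group, all from wild-type C57BL/6J mice whose age is labelled as 8 weeks. The groups were PQ 1w and PQ 4w, given paraquat (PQ), a herbicide that injures the lung, in saline as 1 intratracheal dose, and control 1w and control 4w, given saline. The time labels are taken to mean weeks. Depth ranged between 17220978 and 18559809 expected counts per library. No label says that the numbered replicates of a group are different animals, and the p-values therefore speak only of the spread among these libraries. Alveolar type 2 epithelial markers, which include the surfactant proteins of the lung, were abundant in every library, with summed levels between 15900 and 31900 CPM (counts scaled to the library total), and lowest in the PQ 1w libraries. Replicate 3 of PQ 4w lay at 4.92 on the second principal component of all genes, while replicates 1 and 2 of PQ 4w lay at -41.97 and -40.3.

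Ligands of the family bind as trimers and cluster their receptors. Receptors with a death domain can start apoptosis or necroptosis, whereas those that recruit TRAF adaptors activate NF-kB and support the survival and costimulation of lymphocytes. Decoy receptors bind ligand without passing the signal on. In the lung the family is known for its part in inflammation, in the death of epithelial cells and in the organisation of lymphoid tissue.

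Effects are log2 fold changes ± standard error from an edgeR quasi-likelihood fit of 15921 genes in all 12 libraries, with Benjamini-Hochberg adjustment over all of them. A gene rose or fell where its adjusted p was under 0.05. A ± after a CPM or FPKM value is an SD, with n = 3 per group throughout. In this bulk tissue, fewer cells of a type and less RNA per cell cannot be told apart. Of the 43 members 40 passed the filter on low counts, and Tnfsf4, Cd70 and Tnfrsf8 did not. Among those tested, Tnfrsf17, Lta and Tnfsf11 reached it only with the counts of PQ 4w, and Tnfsf18 only with those of PQ 1w. Each was highest in the group that admitted it, so its calls are not independent of the filter.

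Levels between members were compared per length, as the deposited FPKM, which divide by both library size and transcript length. In control 1w the highest level was that of Tnfrsf1a, the main receptor of TNF, at 92.7 ± 8.22 FPKM. Ltbr, the lymphotoxin beta receptor, followed at 55.9 ± 2.65 FPKM, then Tnfsf12, the ligand TWEAK, at 47.7 ± 3.48 FPKM and Fas, a death receptor, at 46.3 ± 3.28 FPKM. The levels of Tnfsf12 and Fas lay within their spread of each other. Tnfrsf12a, the receptor of TWEAK also called Fn14, had 87.7 ± 6.24 FPKM in PQ 1w and 37.0 ± 7.05 FPKM in control 1w, which placed it below Tnfrsf1a alone in PQ 1w and below all 4 of these genes in control 1w. Most ligands were low, and Tnf itself had 1.13 ± 0.338 FPKM in PQ 1w and 0.520 ± 0.302 FPKM in control 1w. The summed level of all members was 1079 to 1081 CPM in PQ 1w and 946.7 to 1044 CPM in control 1w, and 926 to 1068 CPM in PQ 4w and 941.8 to 1009 CPM in control 4w.

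At 1w, members changed in both directions. Of 40 members tested, 10 rose and 13 fell, or 23 in all, against 48.8% of all genes tested, of which 25.9% were higher and 22.9% lower. Changes of at least 2-fold were made by 12 members, against 12.3% of all genes. Among them is Tnfsf18, which passed the count filter only through PQ 1w. The median absolute log2 effect was 0.59 over the members and 0.32 over all genes, while the medians of the signed effect were -0.02 and 0.01. The values of PQ 1w and control 1w did not overlap for 22 members, against 58.6% of all genes. Of 15 ligands tested 2 rose, 6 fell and 7 did not pass, and of 24 receptors 8 rose, 6 fell and 10 did not pass.

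**Figure D1:**
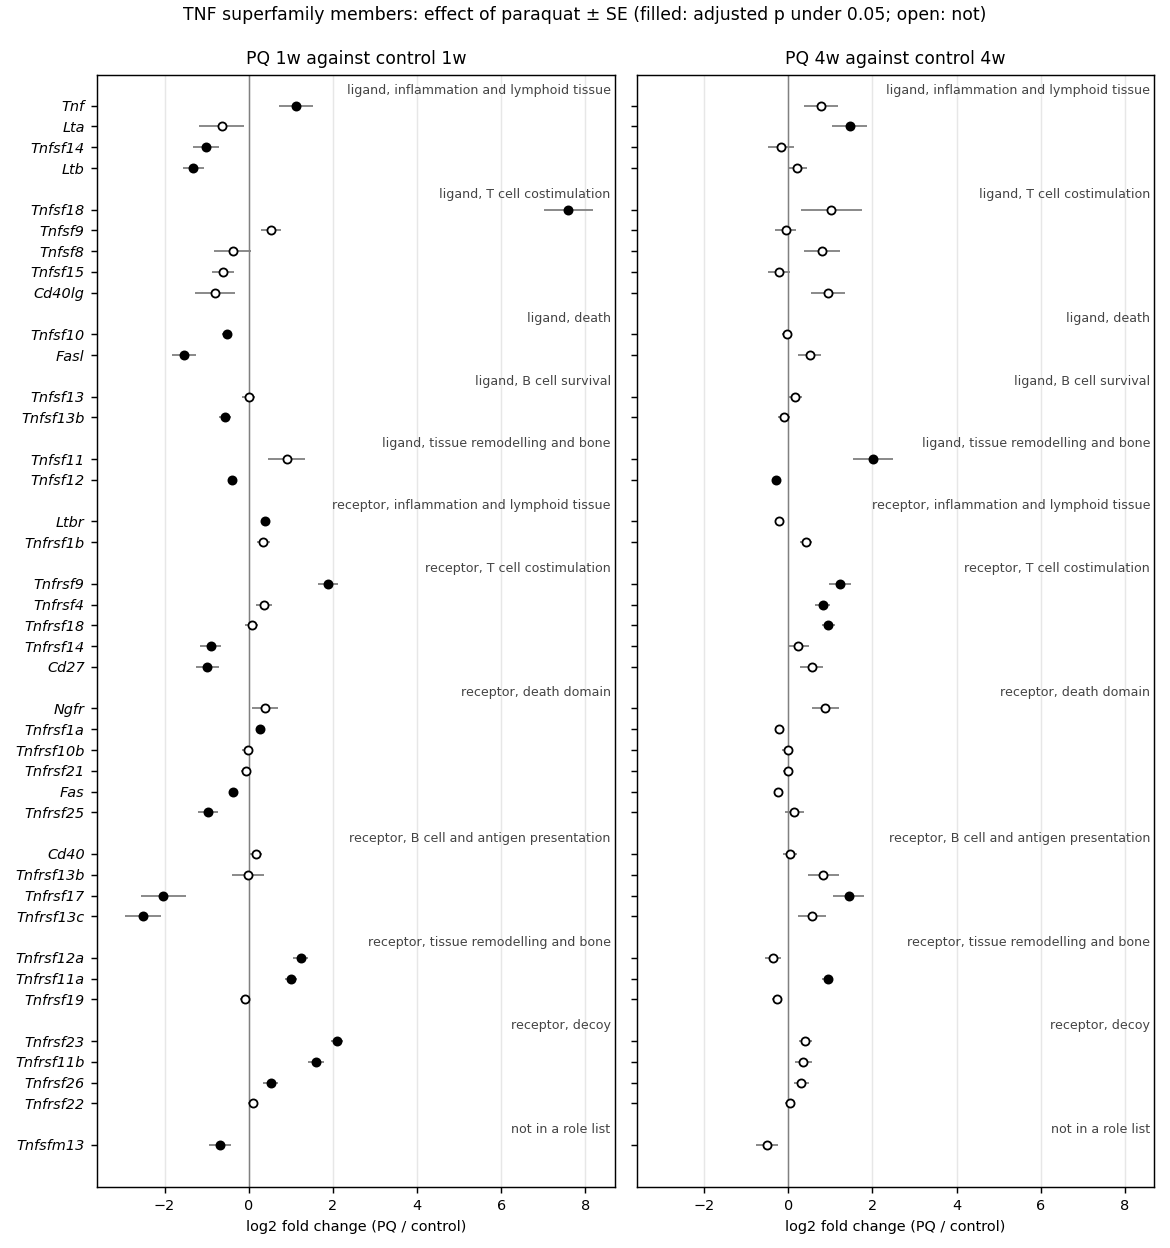
Each point is the log2 fold change of a member, PQ over control, with its standard error as a bar, at 1w (left) and 4w (right), in role groups. Filled points had adjusted p under 0.05; Tnfsf18 stands alone at 7.60 at 1w, and 23 points are filled at 1w and 8 at 4w.

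Among ligands that costimulate T cells, Tnfsf18, the ligand GITRL (chromosome 1, 161494657 to 161505290, GRCm38), was detected almost solely in PQ 1w. It had 9.97, 7.93 and 7.68 CPM in the PQ 1w libraries, against 0, 0.0553 and 0.0548 CPM in control 1w. Over the groups this was 473 counts in PQ 1w and 2 counts in control 1w, a ratio of 231 with a 95% interval of 63.6 to 1910 that covers counting error only (adjusted p = 9.45e-07, edgeR). Its fitted log2 effect of 7.60 depends on the prior count and is no bound, and the gene passed the count filter only through PQ 1w. At 4w the gene had 0.0581, 0.630 and 0.172 CPM in PQ 4w and 0.169, 0.114 and 0.112 CPM in control 4w, and the groups overlapped. Its receptor Tnfrsf18 (GITR) did not pass at 1w, with 3.50, 3.40 and 3.60 CPM in PQ 1w and 2.91, 3.93 and 3.07 CPM in control 1w. The other ligands of this role that were tested, Tnfsf8, Tnfsf9, Tnfsf15 and Cd40lg, did not pass at 1w, with log2 effects of -0.80 to 0.53. Without PQ 4w replicate 3, Tnfsf9 and Tnfsf15 passed (adjusted p = 0.0371 and 0.0281). Tnfsf15 also passed in the fit of the 2 groups only (0.0496), and without PQ 1w replicate 3 Cd40lg passed (log2 -1.47, adjusted p = 0.0379).

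Sequence before the start is given for 4 members. Tnfsf18 and Tnfrsf13c had the highest and the lowest effect at 1w, and Tnfrsf9, which rose at both times, and Ltb, which fell at 1w, were chosen for the motif matches they hold. Each line is the 250 bases before an annotated start, from the RefSeq promoter table of GRCm38.p6, 5′ to 3′ on the gene's strand, in lower case. The regions are chr1:161494407-161494656 (plus strand) for Tnfsf18, chr4:150927749-150927998 (plus) for Tnfrsf9, at the downstream of its starts in the table, chr15:82224381-82224630 (minus) for Tnfrsf13c and chr17:35194257-35194506 (plus) for Ltb. Capitals mark matches on either strand to GGG, any 3 bases and TTCC, an NF-kB-like motif, or to TGANTCA, an AP-1-like motif.
Tnfsf18: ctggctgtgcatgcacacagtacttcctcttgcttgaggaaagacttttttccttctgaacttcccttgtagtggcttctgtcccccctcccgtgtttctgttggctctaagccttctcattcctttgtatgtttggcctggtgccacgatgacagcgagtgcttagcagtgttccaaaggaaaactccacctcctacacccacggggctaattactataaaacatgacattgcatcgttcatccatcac
Tnfrsf9: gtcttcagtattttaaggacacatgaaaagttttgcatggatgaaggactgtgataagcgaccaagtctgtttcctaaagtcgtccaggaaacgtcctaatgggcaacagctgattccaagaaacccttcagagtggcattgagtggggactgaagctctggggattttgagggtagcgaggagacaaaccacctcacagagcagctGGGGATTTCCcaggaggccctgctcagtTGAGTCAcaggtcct
Tnfrsf13c: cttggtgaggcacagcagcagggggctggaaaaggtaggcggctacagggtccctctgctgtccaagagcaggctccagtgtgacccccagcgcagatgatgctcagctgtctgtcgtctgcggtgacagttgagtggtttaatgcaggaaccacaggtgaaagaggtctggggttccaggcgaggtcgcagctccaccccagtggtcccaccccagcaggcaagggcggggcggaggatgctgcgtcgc
Ltb: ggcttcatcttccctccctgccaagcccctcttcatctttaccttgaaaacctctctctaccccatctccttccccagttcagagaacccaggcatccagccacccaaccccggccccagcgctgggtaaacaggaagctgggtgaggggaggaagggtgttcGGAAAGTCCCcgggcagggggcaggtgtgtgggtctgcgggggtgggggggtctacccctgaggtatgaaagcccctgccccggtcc

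Tnfrsf9 held the NF-kB-like letters 43 to 34 bases and the AP-1-like letters 15 to 9 bases before this start, and its upstream start held neither. Ltb held the NF-kB-like letters 87 to 78 bases before its start, on the opposite strand. The windows of Tnfsf18 and Tnfrsf13c held no match. Of 33 members with a window in the table, 3 held the NF-kB-like motif (Ltb, Tnfrsf9 and Tnfrsf25), against 5.31% of 27025 genes, and 6 held the AP-1-like motif (Fas, Tnfrsf8, Tnfrsf9, Tnfsf13, Tnfsf13b and Tnfsf14), against 7.82%. A match of letters is a description and not a binding site.

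Ligands of inflammation and lymphoid tissue moved in both directions at 1w. Tnf (chromosome 17, 35199367 to 35202007), the founding cytokine of the family, had 1.19, 2.16 and 2.18 CPM in PQ 1w and 1.34, 0.387 and 0.767 CPM in control 1w. It rose by log2 1.13 ± 0.40 (adjusted p = 0.0346, edgeR), although 1 control library lay above the lowest PQ library. Tnf missed the threshold without control 1w replicate 2 or 3 or without PQ 1w replicate 2 or 3, with adjusted p-values of 0.089 to 0.117. Ltb (chromosome 17, 35194507 to 35196305), the membrane anchor of lymphotoxin, had 7.27, 7.56 and 8.61 CPM in PQ 1w and 17.5, 20.1 and 20.5 CPM in control 1w. All PQ values lay below all control values, and Ltb fell by 1.32 ± 0.25 on the log2 scale (adjusted p = 0.000869). Tnfsf14 (LIGHT), a further ligand of the lymphotoxin beta receptor, had 2.59, 2.86 and 2.94 CPM in PQ 1w and 5.21, 3.32 and 8.33 CPM in control 1w. It fell by 1.02 ± 0.32 (adjusted p = 0.019), without overlap, but missed the threshold without control 1w replicate 3 or PQ 1w replicate 1 (adjusted p of 0.0578 to 0.118). Lta, lymphotoxin alpha, did not pass at 1w, with 0.377, 0.216 and 0.327 CPM in PQ 1w and 0.280, 0.443 and 0.712 CPM in control 1w.

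Both ligands listed for cell death, Fasl and Tnfsf10, fell at 1w. Tnf, whose receptor Tnfrsf1a has a death domain, was listed with the ligands of inflammation and rose. Fasl (chromosome 1, 161780691 to 161788495), the ligand of Fas that cytotoxic lymphocytes carry, had 0.593, 0.648 and 1.09 CPM in PQ 1w and 2.07, 2.60 and 2.08 CPM in control 1w. The groups did not overlap, and Fasl fell by 1.54 ± 0.29 on the log2 scale (adjusted p = 0.000824, edgeR). Tnfsf10 (TRAIL) fell by 0.52 ± 0.11 (adjusted p = 0.00195), and Fas fell by 0.38 ± 0.10 (adjusted p = 0.00708). Ligands of B cell survival were split: Tnfsf13b (BAFF) fell by 0.56 ± 0.14 (adjusted p = 0.00635), and Tnfsf13 (APRIL) did not pass, at log2 0.00 ± 0.15. Tnfsf12 fell by 0.41 ± 0.07 (adjusted p = 0.000453), and Tnfsfm13 by 0.69 ± 0.25 (adjusted p = 0.0399). Tnfsfm13 missed the threshold without any of 7 libraries (control 1w replicate 1 or 3, control 4w replicate 2 or 3, PQ 1w replicate 2 or 3, PQ 4w replicate 2), at adjusted p of 0.0506 to 0.148. Tnfsf12 and Tnfsf13 share 48.3% and 60% of their exon bases with Tnfsfm13, so the counts of these 3 genes are uncertain.

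Of 4 decoy receptors tested at 1w, 3 rose and Tnfrsf22 did not pass. Tnfrsf23, a mouse decoy receptor for TRAIL (chromosome 7, 143665807 to 143686436), had 14.7, 16.1 and 16.8 CPM in PQ 1w and 3.76, 4.05 and 3.21 CPM in control 1w. The groups lay far apart, and it rose by log2 2.09 ± 0.15 (adjusted p = 5.32e-07, edgeR). Tnfrsf11b, osteoprotegerin, the soluble decoy of the bone ligand RANKL (chromosome 15, 54250619 to 54278484), had 7.06, 11.2 and 8.45 CPM in PQ 1w and 2.69, 2.93 and 3.12 CPM in control 1w. Its groups did not overlap, and it rose by log2 1.60 ± 0.18 (adjusted p = 2.43e-05). Tnfrsf26, listed with them for its similarity, rose by log2 0.52 ± 0.17 (adjusted p = 0.0262), and missed the threshold without control 1w replicate 2 or 3 or PQ 1w replicate 2 or 3 (adjusted p of 0.0536 to 0.0839). Tnfrsf22, a further TRAIL decoy, had 22.7, 23.5 and 20.8 CPM in PQ 1w and 22.1, 18.8 and 21.2 CPM in control 1w. The log2 effect of Tnfrsf22 was 0.10 ± 0.12. Tnfrsf22, Tnfrsf23 and Tnfrsf26 are neighbouring, similar genes within 78.8 kb, whose reads the counting could have split. Of the exon bases of Tnfrsf23 and Tnfrsf26, 4.14% and 3.33% lie opposite the antisense gene E230032D23Rik.

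Receptors of tissue remodelling and bone also rose at 1w, 2 of 3. Tnfrsf12a (chromosome 17, 23675445 to 23677449) had 87.9, 86.9 and 77.1 CPM in PQ 1w and 42.7, 29.3 and 34.6 CPM in control 1w. Every PQ value exceeded every control value, a rise of log2 1.23 ± 0.18 (adjusted p = 0.000124, edgeR). Tnfrsf11a, the receptor RANK (chromosome 1, 105780673 to 105849444), had 12.8, 13.4 and 13.4 CPM in PQ 1w and 7.80, 5.69 and 6.10 CPM in control 1w. It rose without overlap by log2 1.01 ± 0.14 (adjusted p = 9.39e-05). Tnfrsf19 (TROY) did not pass, at log2 -0.10 ± 0.12. Markers of transitional alveolar epithelium rose in 6 of 6 (summed level 1530 to 1970 CPM in PQ 1w, 798 to 996 CPM in control 1w), and fibroblast markers in 5 of 8, with 1 lower (11100 to 12600 CPM in PQ 1w, 3330 to 3500 CPM in control 1w). None of these markers was at 0 in all libraries, and their part in the rise of decoy and remodelling receptors was not tested.

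Of the abundant receptors at 1w, Tnfrsf1a rose by log2 0.27 ± 0.07 (adjusted p = 0.00983, edgeR) and Ltbr by log2 0.39 ± 0.07 (adjusted p = 0.000632). Tnfrsf1a missed the threshold without PQ 1w replicate 1 (adjusted p = 0.0521). Tnfrsf1b, the other receptor of TNF, did not pass, at log2 0.35 ± 0.15, but did so without control 1w replicate 3 or PQ 4w replicate 3 (adjusted p = 0.0156 and 0.0373). Of the other receptors with a death domain, Tnfrsf25 (DR3, carried by T cells) had 2.53, 3.08 and 4.69 CPM in PQ 1w and 6.50, 6.81 and 6.63 CPM in control 1w. It fell without overlap by 0.97 ± 0.24 on the log2 scale (adjusted p = 0.00527). The TRAIL receptor Tnfrsf10b, Tnfrsf21 (DR6) and the neurotrophin receptor Ngfr did not pass, with log2 effects of -0.07 to 0.38.

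Of 4 receptors of B cells and antigen presentation, 2 fell at 1w and 2 did not pass. Tnfrsf13c, the BAFF receptor of mature B cells (chromosome 15, 82221742 to 82224380), had 0.757, 1.05 and 0.733 CPM in PQ 1w and 4.82, 5.18 and 4.17 CPM in control 1w. The groups lay far apart, and Tnfrsf13c fell by 2.51 ± 0.43 on the log2 scale (adjusted p = 0.000463, edgeR). Tnfrsf17 (BCMA), a receptor of plasma cells (chromosome 16, 11313232 to 11320074), had 0.108, 0.054 and 0.109 CPM in PQ 1w and 0.504, 0.443 and 0.219 CPM in control 1w. It fell without overlap by 2.03 ± 0.53 (adjusted p = 0.00723), on 5 counts over the PQ 1w libraries and 21 over control 1w. No library outside PQ 4w held 10 counts of Tnfrsf17, so it passed the filter only through PQ 4w, where it was highest. In the fit of the 2 groups only it was not tested at 1w. The remaining receptors of this role, Cd40 of antigen-presenting cells and Tnfrsf13b (TACI), did not pass, at log2 0.16 ± 0.16 and -0.02 ± 0.39.

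T cell costimulatory receptors split at 1w, with 1 higher, 2 lower and 2 that did not pass. Cd27 had 3.29, 3.15 and 2.78 CPM in PQ 1w and 5.06, 6.83 and 6.19 CPM in control 1w, and fell without overlap by 0.98 ± 0.28 (adjusted p = 0.0113, edgeR). Tnfrsf14 (HVEM), the receptor of LIGHT, had 3.72, 3.18 and 3.81 CPM in PQ 1w and 6.55, 4.70 and 8.66 CPM in control 1w. It fell by 0.90 ± 0.25 (adjusted p = 0.0106), also without overlap, and missed the threshold without control 1w replicate 3 (adjusted p = 0.0632). Tnfrsf9 (4-1BB, chromosome 4, 150920155 to 150946104) went the other way, with 5.28, 9.13 and 7.09 CPM in PQ 1w and 1.85, 2.05 and 1.88 CPM in control 1w. Tnfrsf9 rose without overlap by log2 1.88 ± 0.24 (adjusted p = 5.51e-05). Its ligand Tnfsf9 did not pass, with 5.01, 8.58 and 5.29 CPM in PQ 1w and 4.03, 4.59 and 4.33 CPM in control 1w.

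**Figure D2:**
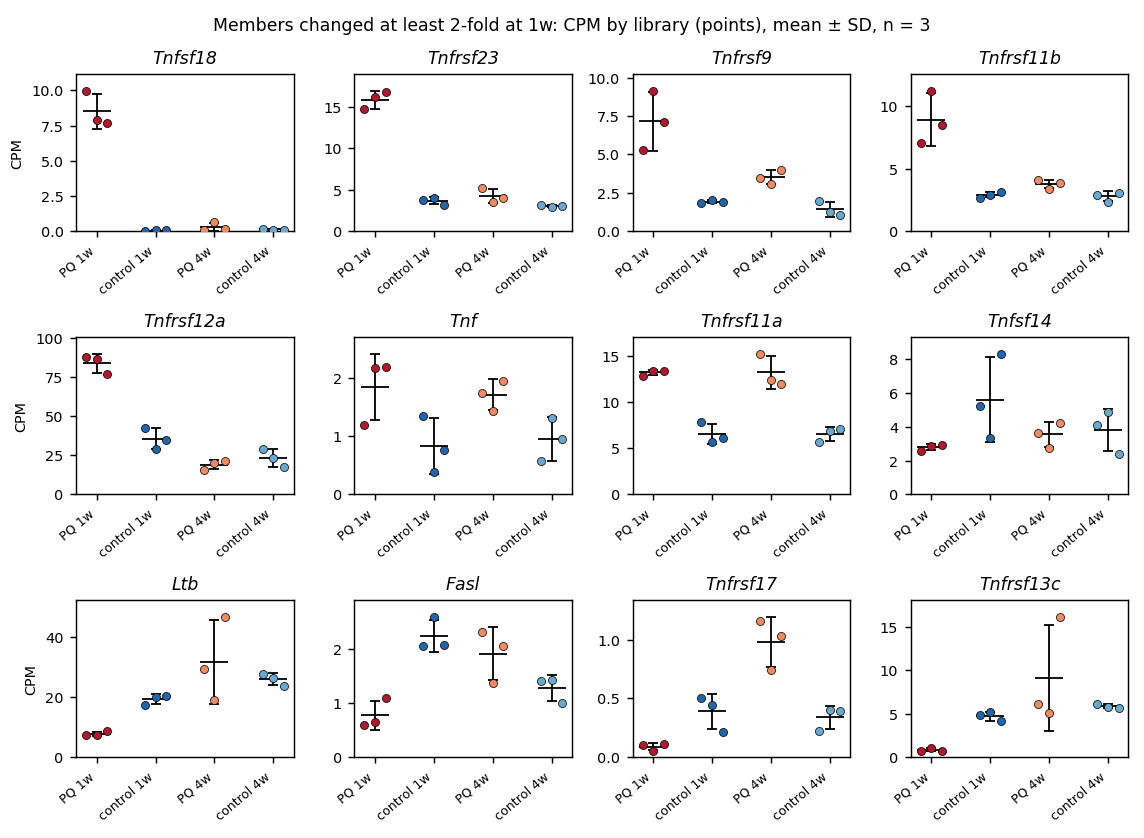
Points are CPM in each library and bars are mean ± SD (n = 3) in PQ 1w, control 1w, PQ 4w and control 4w, for the 12 members changed at least 2-fold at 1w; each axis starts at 0. Tnfsf18 and Tnfrsf23 stand high in PQ 1w alone, Tnfrsf9 and Tnfrsf11a also in PQ 4w, and replicate 3 of PQ 4w is highest for Ltb and Tnfrsf13c.

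Lymphocyte markers were lower at 1w along with these genes. All 10 B cell markers fell, with summed levels of 44.9 to 49.8 CPM in PQ 1w and 167 to 190 CPM in control 1w. All 11 T cell markers in the tables fell (of 12 listed; 53.1 to 61.3 CPM in PQ 1w, 118 to 141 CPM in control 1w), as did all 8 NK cell markers (11.1 to 17.4 CPM in PQ 1w, 87.8 to 99.7 CPM in control 1w). Of the plasma cell markers, which include Tnfrsf17, 1 of 6 rose and 4 fell (588 to 623 CPM in PQ 1w, 500 to 568 CPM in control 1w). Macrophage markers rose in 9 of 10, with 1150 to 1360 CPM in PQ 1w and 416 to 425 CPM in control 1w. The falls were not limited to lymphocyte markers. All 7 alveolar type 2 markers fell (15900 to 17600 CPM in PQ 1w, 26000 to 31900 CPM in control 1w), as did 7 of 8 of endothelium (2570 to 3020 CPM in PQ 1w, 4130 to 4620 CPM in control 1w) and 7 of 8 of dendritic cells (45.5 to 53.8 CPM in PQ 1w, 102 to 104 CPM in control 1w). All 5 erythroid markers fell (723 to 2020 CPM in PQ 1w, 3600 to 6060 CPM in control 1w), as did 3 of 6 of neutrophils (85.3 to 149 CPM in PQ 1w, 168 to 381 CPM in control 1w). In alveolar type 1 epithelium 1 of 6 rose and 3 fell (3960 to 4250 CPM in PQ 1w, 5170 to 5940 CPM in control 1w), and in airway epithelium 2 of 5 fell (4060 to 5180 CPM in PQ 1w, 20100 to 28500 CPM in control 1w). No marker was at 0 in all libraries, and the part of these cell types in the members' changes was not tested.

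At 4w fewer members differed and most of those were higher. Of 40 tested, 7 rose and 1 fell, 8 in all, against 12.1% of all genes, of which 5.75% were higher and 6.39% lower. Changes of at least 2-fold were made by 4 (Tnfsf11, Lta, Tnfrsf17 and Tnfrsf9), against 2.44% of all genes. Tnfsf11, Lta and Tnfrsf17 passed the count filter only through PQ 4w, so their part in these counts is not independent of the filter. PQ 4w and control 4w did not overlap for 16 members, against 31.3% of all genes. The median log2 effect was 0.27 over the members and 0.00 over all genes. Of 15 ligands 2 rose and 1 fell, and of 24 receptors 5 rose and 0 fell. Leaving out control 4w replicate 1 or control 4w replicate 2 left 4 members past the threshold, and leaving out PQ 4w replicate 1 left 5.

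The ligand RANKL and its receptor RANK both rose at 4w. Tnfsf11 (RANKL, chromosome 14, 78277446 to 78308043), known for driving osteoclasts and lymph node development, had 1.10, 0.630 and 0.973 CPM in PQ 4w and 0.338, 0.114 and 0.168 CPM in control 4w. It rose without overlap by log2 2.01 ± 0.47 (adjusted p = 0.0171, edgeR). Tnfsf11 passed the count filter only through PQ 4w, where it was highest. Tnfsf11 missed the threshold without control 4w replicate 2 or 3 or PQ 4w replicate 1 (adjusted p of 0.0589 to 0.0651), and when only the PQ 4w and control 4w groups were fitted (0.0555). Tnfrsf11a had 15.2, 12.4 and 11.9 CPM in PQ 4w and 5.67, 6.87 and 7.10 CPM in control 4w, and rose without overlap by log2 0.93 ± 0.14 (adjusted p = 0.00218). The decoy Tnfrsf11b did not pass at 4w, with 4.06, 3.38 and 3.83 CPM in PQ 4w and 2.93, 2.34 and 3.09 CPM in control 4w.

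Of the T cell costimulatory receptors tested at 4w, 3 of 5 rose and 0 fell. Tnfrsf9 had 3.48, 3.09 and 4.01 CPM in PQ 4w and 1.97, 1.26 and 1.07 CPM in control 4w, and rose without overlap by log2 1.22 ± 0.26 (adjusted p = 0.0119, edgeR). Tnfrsf18 (chromosome 4, 156026322 to 156028894) had 8.59, 7.33 and 6.87 CPM in PQ 4w and 3.27, 4.11 and 3.82 CPM in control 4w. All PQ values lay above all control values, a rise of log2 0.95 ± 0.15 (adjusted p = 0.00316). Its neighbour Tnfrsf4 (OX40) had 3.43, 3.61 and 4.92 CPM in PQ 4w and 2.03, 2.28 and 2.13 CPM in control 4w, and rose without overlap by log2 0.82 ± 0.18 (adjusted p = 0.0142). Tnfrsf4 missed the threshold without control 4w replicate 1 (adjusted p = 0.0616) and in the fit of the 2 groups only (0.063). At 1w Tnfrsf4 had 2.16, 2.43 and 2.56 CPM in PQ 1w and 1.68, 1.83 and 2.03 CPM in control 1w. Those groups did not overlap, but Tnfrsf4 did not pass (log2 0.36 ± 0.19), and its effect did not pass as different between the times. Of the exon bases of Tnfrsf18, 27.2% lie opposite the antisense gene Gm16008, and without the strand of the libraries reads of the pair cannot be told apart.

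Lta and Tnfrsf17 also rose at 4w, and both passed the count filter only through PQ 4w, where they were highest. Lta (chromosome 17, 35203165 to 35205578) had 1.51, 1.03 and 2.58 CPM in PQ 4w and 0.451, 0.457 and 0.842 CPM in control 4w. It rose without overlap by log2 1.46 ± 0.42 (adjusted p = 0.0399, edgeR), but missed the threshold without any of 7 libraries (control 1w replicate 2, control 4w replicate 1 or 2, PQ 1w replicate 1 or 3, PQ 4w replicate 1 or 3; adjusted p of 0.0526 to 0.149). Tnfrsf17 had 1.16, 0.745 and 1.03 CPM in PQ 4w and 0.225, 0.399 and 0.393 CPM in control 4w, from 51 counts in PQ 4w and 18 in control 4w. It rose without overlap by log2 1.44 ± 0.37 (adjusted p = 0.0266), and missed the threshold without control 4w replicate 1, 2 or 3 or PQ 4w replicate 1 (adjusted p of 0.0575 to 0.114). Ltb did not pass at 4w, with 29.5, 19.1 and 46.8 CPM in PQ 4w and 27.9, 26.5 and 23.8 CPM in control 4w. Nor did Tnfrsf13c, with 6.13, 5.05 and 16.1 CPM in PQ 4w and 6.12, 5.76 and 5.69 CPM in control 4w, and Cd27, with 6.34, 5.29 and 11.3 CPM in PQ 4w and 4.88, 6.29 and 3.64 CPM in control 4w. For these 3 genes replicate 3 of PQ 4w was the highest library and the groups overlapped.

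The single lower member at 4w was Tnfsf12, which fell by 0.30 ± 0.07 on the log2 scale (adjusted p = 0.0161, edgeR), with 74.7, 69.5 and 70.2 CPM in PQ 4w and 84.1, 89.2 and 78.4 CPM in control 4w. It missed the threshold without control 4w replicate 1 or 2 (adjusted p of 0.0683 to 0.0744). Cd40lg, the CD40 ligand of helper T cells, did not pass, with 1.68, 0.859 and 1.03 CPM in PQ 4w and 0.563, 0.457 and 0.729 CPM in control 4w, although the groups did not overlap. Without PQ 4w replicate 3, 7 members still passed at 4w, and Lta missed the threshold (log2 1.04, adjusted p = 0.115).

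**Figure D3:**
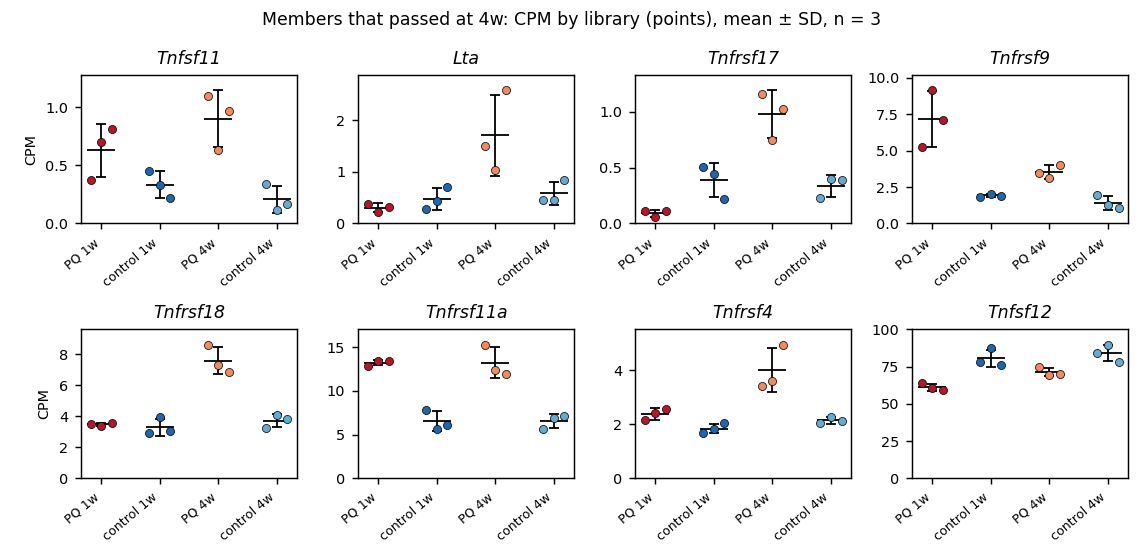
Points are CPM in each library and bars are mean ± SD (n = 3) in PQ 1w, control 1w, PQ 4w and control 4w, for the 8 members that passed at 4w; each axis starts at 0. The first 7 panels show PQ 4w above control 4w and the last, Tnfsf12, shows it below.

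At 4w the T cell markers rose in 5 of 11, with summed levels of 137, 96 and 204 CPM in PQ 4w and 79.8 to 92.1 CPM in control 4w. No B cell marker passed in the edgeR fit, with 191, 149 and 398 CPM in PQ 4w and 237 to 238 CPM in control 4w, so replicate 3 of PQ 4w again stood highest. Plasma cell markers rose in 4 of 6 (771 to 1160 CPM in PQ 4w, 463 to 475 CPM in control 4w), dendritic cell markers in 4 of 8 (131 to 175 CPM in PQ 4w, 102 to 108 CPM in control 4w) and macrophage markers in 9 of 10 (716 to 842 CPM in PQ 4w, 330 to 372 CPM in control 4w). Endothelial markers fell in 7 of 8, with 1 higher (2800 to 3530 CPM in PQ 4w, 4430 to 4660 CPM in control 4w). Neutrophil markers fell in 5 of 6 (88.5 to 131 CPM in PQ 4w, 125 to 533 CPM in control 4w) and alveolar type 1 markers in 2 of 6 (2630 to 4200 CPM in PQ 4w, 4670 to 5250 CPM in control 4w). Alveolar type 2 markers rose in 2 of 7 (26100 to 27600 CPM in PQ 4w, 22800 to 25800 CPM in control 4w) and fibroblast markers in 1 of 8 (2890 to 3120 CPM in PQ 4w, 2500 to 2660 CPM in control 4w). No NK cell marker passed (46.7 to 60.5 CPM in PQ 4w, 41.6 to 63.7 CPM in control 4w). Nor did any of transitional alveolar epithelium (768 to 975 CPM in PQ 4w, 797 to 826 CPM in control 4w). Airway epithelium markers (21600 to 43500 CPM in PQ 4w, 41400 to 48800 CPM in control 4w) did not pass either. The same held for erythroid markers (796 to 2240 CPM in PQ 4w, 863 to 2770 CPM in control 4w). The part of all these cell types in the members' changes at 4w was not tested.

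**Figure D4:**
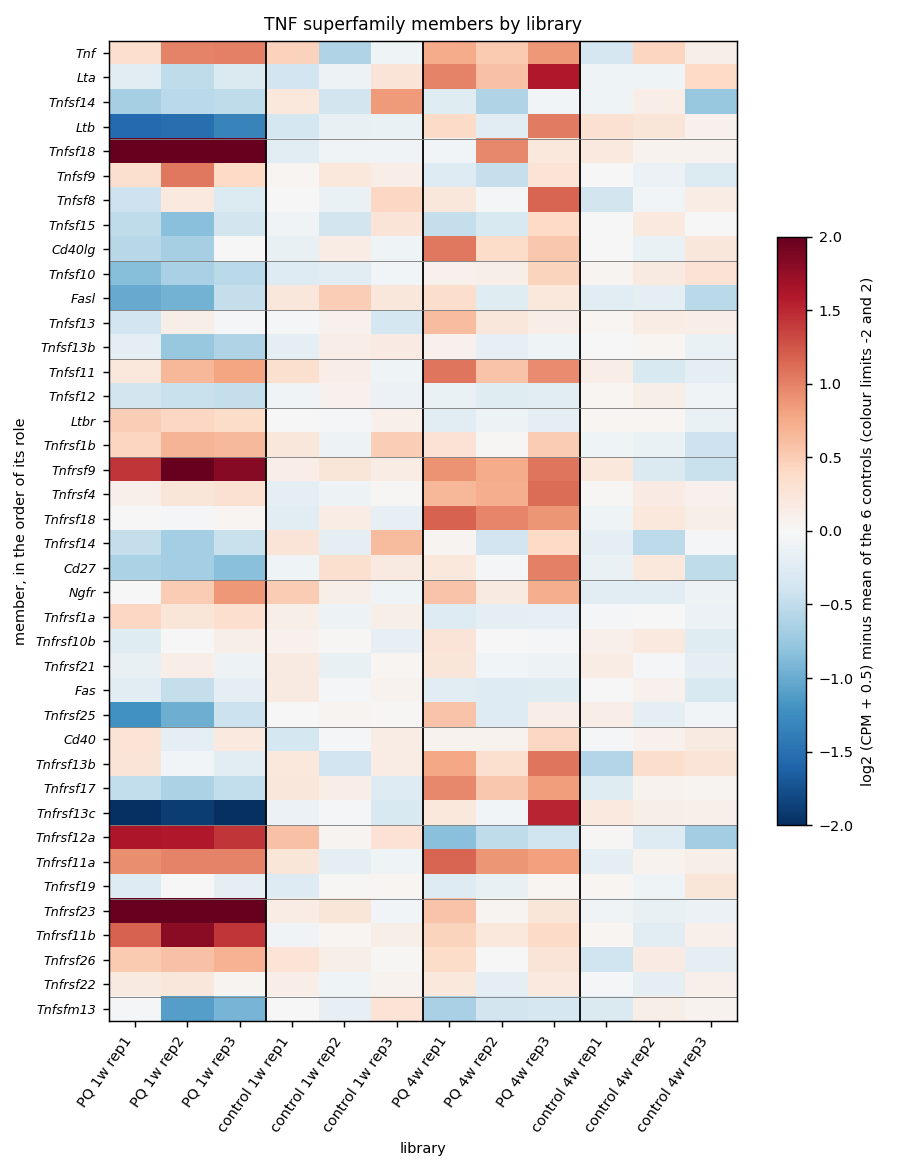
Colour gives log2 (CPM + 0.5) of each tested member in each of the 12 libraries minus the mean of the 6 controls, with colour limits of -2 and 2. The 3 PQ 1w libraries share dark red for Tnfsf18 and Tnfrsf23 and dark blue for Tnfrsf13c and Ltb, and PQ 4w replicate 3 is the reddest PQ 4w library for Lta, Ltb and Tnfrsf13c.

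The effect of paraquat differed between the times for 17 of 40 members, against 32.0% of all genes. It was higher at 4w than at 1w for 11 members (14.1% of all genes) and lower for 6 (17.9%), and the difference was at least 2-fold for 13 (9.78%). Among the 13 are Tnfrsf17 and Lta, which passed the count filter only through PQ 4w, and Tnfsf18, which did so only through PQ 1w. Their part in these counts is not independent of the filter. Effects that were lower at 4w belonged to Tnfsf18, Tnfrsf23, Tnfrsf12a, Tnfrsf11b, Ltbr and Tnfrsf1a, all of which rose at 1w. Effects that were higher at 4w belonged to Tnfrsf17, Tnfrsf13c, Lta, Fasl, Cd40lg, Cd27, Ltb, Tnfrsf14, Tnfrsf25, Tnfrsf18 and Tnfsf10. Among receptors of B cells and antigen presentation 2 of 4 had a higher effect at 4w, and among T cell costimulatory receptors 3 of 5. The effects of Tnfrsf9 and Tnfrsf11a, the members that rose at both times, did not pass as different between them, at log2 differences of -0.66 ± 0.36 and -0.07 ± 0.20.

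Values at the time not yet given follow, first for members whose difference passed at 2-fold or more. Tnfrsf23 had 5.21, 3.49 and 4.04 CPM in PQ 4w and 3.15, 2.96 and 3.05 CPM in control 4w, so the groups did not overlap but lay closer than at 1w. Fasl had 2.32, 1.37 and 2.06 CPM in PQ 4w and 1.41, 1.43 and 1.01 CPM in control 4w, with overlap. Tnfrsf25 had 9.87, 5.33 and 7.15 CPM in PQ 4w and 7.21, 5.71 and 6.28 CPM in control 4w, and Tnfrsf14 had 5.57, 4.01 and 7.27 CPM in PQ 4w and 4.68, 3.60 and 5.27 CPM in control 4w. For Fasl, Tnfrsf25 and Tnfrsf14 the groups overlapped at 4w, where at 1w all PQ libraries were below all controls. Cd40lg had 0.216, 0.162 and 0.545 CPM in PQ 1w and 0.448, 0.664 and 0.493 CPM in control 1w, overlapping at 1w and not at 4w. Tnfrsf12a had 15.6, 19.8 and 21.2 CPM in PQ 4w and 28.7, 23.5 and 17.2 CPM in control 4w, with overlap and a log2 effect of -0.36 ± 0.19. The other 3 members below changed at least 2-fold at 1 of the times, and their difference between times did not pass. At 4w Tnf had 1.74, 1.43 and 1.95 CPM in PQ 4w and 0.563, 1.31 and 0.954 CPM in control 4w, which did not overlap, although Tnf did not pass (log2 0.78 ± 0.40). Tnfsf14 had 3.66, 2.75 and 4.24 CPM in PQ 4w and 4.11, 4.91 and 2.41 CPM in control 4w, and Tnfsf11 had 0.377, 0.702 and 0.817 CPM in PQ 1w and 0.448, 0.332 and 0.219 CPM in control 1w. Both of these overlapped and did not pass at those times.

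Between PQ 4w and PQ 1w, 12 members were higher and 10 lower in PQ 4w, or 22 in all, against 54.6% of all genes, of which 26.7% were higher and 27.8% lower. Without TMM scaling 16 were higher and 8 lower. Tnfrsf12a was far below its PQ 1w values in all PQ 4w libraries, lower in PQ 4w by log2 -2.22 ± 0.18 (adjusted p = 1.81e-06, edgeR). Tnfrsf23 was lower in PQ 4w by log2 -1.96 ± 0.14 (adjusted p = 7.38e-07), and Tnfrsf13c was higher by log2 3.37 ± 0.42 (adjusted p = 3.85e-05). Tnfrsf26 passed here but not without PQ 1w replicate 3 or PQ 4w replicate 2 (adjusted p of 0.0717 to 0.0862), nor without TMM or in limma on FPKM (0.0573 to 0.0576). Tnfrsf1b passed, but held without control 1w replicate 2 or 3, control 4w replicate 3, PQ 1w replicate 1 or PQ 4w replicate 3 only, and missed the threshold without any of the other 7 libraries (0.0516 to 0.164) and without TMM or in limma on FPKM (0.113 to 0.116). Tnfsf13b held without control 1w replicate 1 or 3 or PQ 1w replicate 1 only, and missed it without any of the other 9 (0.052 to 0.157) and with no filter or in the fit of 2 groups only (0.0516 to 0.0724). Between control 4w and control 1w, 1 member passed, against 10.1% of all genes, of which 5.90% were higher and 4.20% lower. Tnfrsf12a had 28.7, 23.5 and 17.2 CPM in control 4w and 42.7, 29.3 and 34.6 CPM in control 1w, a log2 effect of -0.63 ± 0.18 (adjusted p = 0.0484) without overlap. It held without control 1w replicate 2, control 4w replicate 1 or PQ 4w replicate 1 or 3 only, and missed the threshold without any of the other 8 libraries (adjusted p of 0.0511 to 0.158). The difference between times and these comparisons share libraries with those of PQ against control.

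Listed ligands were set beside their receptors, in 24 pairs of which 21 had both partners tested. At 1w both partners passed in 8 pairs, where 57.5% of the members tested and 48.8% of all genes passed singly. Tnfsf13b, Tnfsf14 and Ltbr recur among these pairs, which are therefore not separate observations. Whether partners moved together more often than other genes was not tested. Tnf and Tnfrsf1a both rose. Both partners fell in 4 pairs, Fasl with Fas, Tnfsf14 with Tnfrsf14, and Tnfsf13b with Tnfrsf13c and with Tnfrsf17. In 3 pairs the ligand fell and the receptor rose, namely Ltb with Ltbr, Tnfsf14 with Ltbr and Tnfsf12 with Tnfrsf12a. At 4w both partners passed in 1 pair, Tnfsf11 with Tnfrsf11a, and both rose. Tnfsf11 passed the count filter only through PQ 4w, so its call in this pair is not independent of the filter. The pair of GITRL and GITR was called at different times, with Tnfsf18 higher at 1w and Tnfrsf18 higher at 4w.

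**Figure D5:**
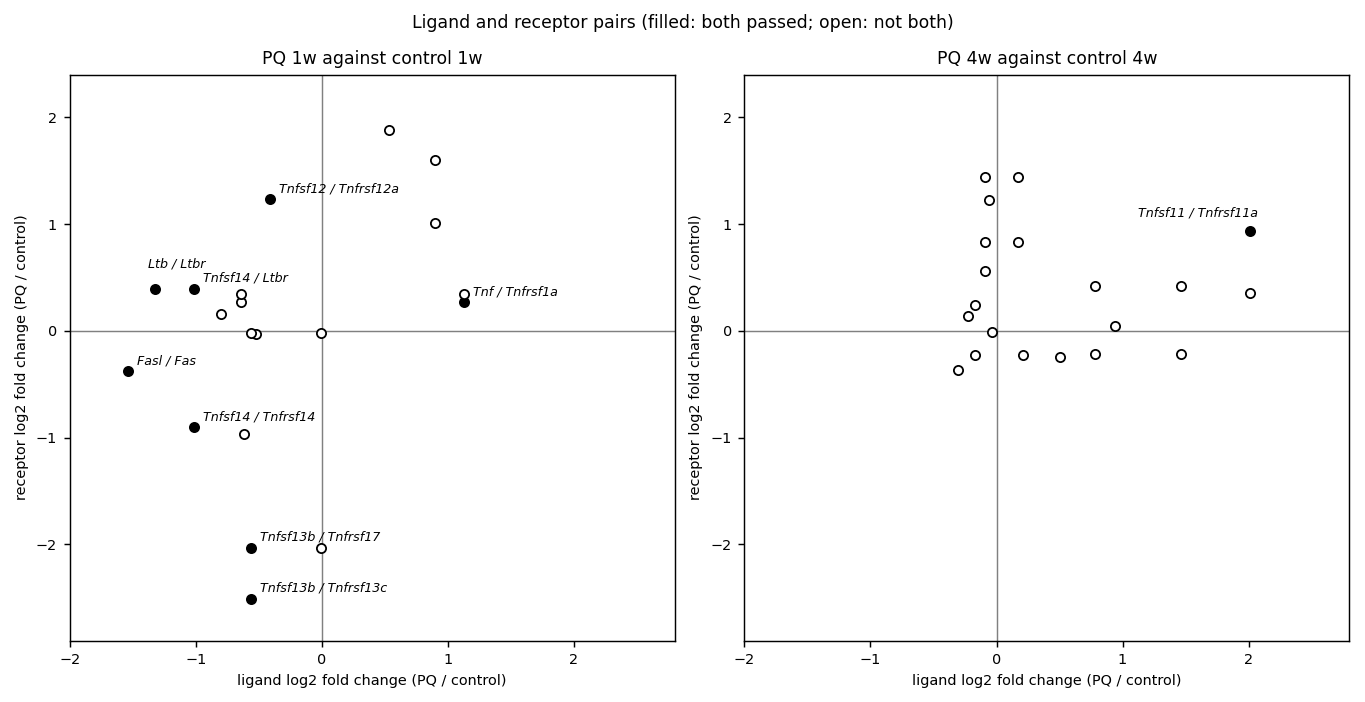
Each point is a ligand and receptor pair, with the log2 fold change (PQ over control) of the ligand on the x axis and of the receptor on the y axis, at 1w (left) and 4w (right); the pair of Tnfsf18 and Tnfrsf18, at 7.60 and 0.07 at 1w and at 1.02 and 0.95 at 4w, is not drawn. Filled points, 8 at 1w and 1 at 4w, had both partners past the threshold, and 3 of those at 1w lie at a lower ligand and a higher receptor.

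Many members lie beside one another in the genome: 24 of 43 fall in 9 clusters with gaps of at most 500 kb. Neighbours did not always move alike at 1w. Within 11.1 kb of chromosome 17, Ltb fell, Tnf rose and Lta did not pass. In the cluster of 393 kb on chromosome 1, Tnfsf18 rose and Fasl fell. In the cluster of 130 kb on chromosome 6, Cd27 fell while Ltbr and Tnfrsf1a rose. At 4w, Tnfrsf4 and Tnfrsf18, which span 15.3 kb of chromosome 4, both rose.

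The members below the count filter were seen in few reads. Tnfsf4, the ligand OX40L, had 10 counts over the PQ 1w libraries and 2 over control 1w, a ratio of 4.89 with a 95% interval of 1.04 to 45.9, and 9 counts in PQ 4w against 1 in control 4w, a ratio of 9.16 (1.27 to 402). Of the 9 counts in PQ 4w, 7 came from replicate 3. Tnfrsf8 (CD30), a receptor of activated lymphocytes, had 23 counts in PQ 4w and 3 in control 4w, a ratio of 7.81 (2.36 to 40.6), and 7 counts in PQ 1w and 5 in control 1w. Cd70, the ligand of CD27, had 1 count in PQ 1w, 2 in control 1w, 1 in PQ 4w and 0 in control 4w. These intervals cover counting error only.

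Genes that pass on or restrain the signal were counted in a list of 40. At 1w 11 rose, 10 fell and 19 did not pass, against 48.8% of all genes called, with a median log2 of 0.03. At 4w 5 rose, 3 fell and 32 did not pass, against 12.1% of all genes called, with a median of 0.09. At 1w Ripk3, the kinase of necroptosis, had 20.9 ± 2.54 CPM in PQ 1w and 11.5 ± 1.45 CPM in control 1w, a rise of log2 0.86 ± 0.13 (adjusted p = 0.000246, edgeR). Eda2r, a related receptor for ectodysplasin A2, rose by log2 1.54 ± 0.14 (adjusted p = 3.55e-06). Traf1, an adaptor of lymphocyte receptors, had 20.5 ± 0.652 CPM in PQ 1w and 53.9 ± 5.60 CPM in control 1w, and fell by 1.41 ± 0.14 (adjusted p = 6.58e-06). Cflar, the inhibitor of caspase-8, fell by 0.67 ± 0.08 (adjusted p = 2.32e-05), and the kinase Ikbkb by 0.42 ± 0.08 (adjusted p = 0.000861).

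Of 8 inhibitors in the list, 2 rose, 4 fell and 2 did not pass at 1w, and 3 rose, 1 fell and 4 did not pass at 4w. Nfkbie, an inhibitor of NF-kB, had 18.1 ± 4.60 CPM in PQ 4w and 9.46 ± 0.949 CPM in control 4w and rose by log2 0.86 ± 0.16 (adjusted p = 0.00576, edgeR). Tnfaip3 (A20), which edits ubiquitin to end the signal, rose by log2 0.61 ± 0.12 (adjusted p = 0.00868), and its partner Tnip1 by log2 0.28 ± 0.08 (adjusted p = 0.0441). Map3k14, the kinase of the alternative NF-kB pathway, rose by log2 0.43 ± 0.08 (adjusted p = 0.00738), and Eda2r by log2 0.50 ± 0.15 (adjusted p = 0.0447). Cflar fell by 0.27 ± 0.08 (adjusted p = 0.0379), the NF-kB subunit Rela by 0.25 ± 0.07 (adjusted p = 0.043) and Rhbdf2, which helps the protease that sheds TNF mature, by 0.29 ± 0.08 (adjusted p = 0.0378). Nfkbie and Tnip1 had also risen at 1w (log2 0.56 and 0.24), and Rela and Rhbdf2 had also fallen at 1w (log2 -0.25 and -0.24). For Nfkbie, Tnip1, Rela and Rhbdf2 the difference of the effects between the times did not pass.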

How the data were processed

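Lung RNA of 12 libraries went onto a BGISEQ 500 sequencer, per the labels' protocols. The submitters' processing notes name HISAT, RSEM 1.2.12 and mm10. For HISAT's version, the annotation release and the strand, nothing is given in the sources used here. Expected counts per gene were deposited unscaled, per the file headers. FPKM values, also made by the authors and deposited in the same tables, served only for levels between genes and 1 alternative. Genes absent from a library's table counted as 0 there. Dates in place of 27 symbols were replaced from gene IDs.

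Expected counts were rounded and tested with edgeR's quasi-likelihood F-test in all 12 libraries, with 4 group means and TMM scaling (factors 0.974 to 1.06). The filterByExpr filter, at a count of at least 10 and a total of at least 15, left 15921 genes. Printed CPM were scaled to the library total without TMM. Standard errors are approximate, being the size of the effect over the root of its F statistic. The fit was tested on simulated data first, with 1 spread for all genes and changes placed only in genes above a minimum mean count. It recovered 95% of simulated log2 changes of 1 and 100% of those of 2. Members of low count, such as Tnfrsf17, Lta and Tnfsf11, are not covered by that test. Intervals of count ratios are exact 95% intervals.

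Groups came from the labels. The members, role lists, pairs and marker lists were chosen with earlier results of these data known, and a marker list is a set of transcripts of whole lung, not a count of cells. Members with adjusted p under 0.05 and an absolute log2 of at least 1, in PQ against control at either time or in the difference between times, were given in every library, and other members were added for their partner or neighbour. Of 40 signalling genes, the 6 with the smallest p at 1w, of which 1 is not reported here, and those past 0.05 at 4w were named. Coordinates came from the RefSeq gene table of GRCm38 and exon overlaps from GENCODE M21, and motifs were searched as letters on both strands. Alternatives were no TMM, no filter, a replicate block, 2 groups only, DESeq2, limma on log2 (FPKM + 0.1) and leaving out each library. Versions were edgeR 4.0.16, DESeq2 1.42.0 and limma 3.58.1 under R 4.3.3. Tables used pandas 2.3.3 and numpy 2.4.6, and plots matplotlib 3.10.9, under Python 3.11.15.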

Additional observations from a re-analysis of the deposited data

Results flagged for a closer look

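For 17 members the effect of paraquat differed between the times in a test of the difference itself (edgeR interaction term, adjusted p under 0.05). Values are the log2 effect at 4w minus that at 1w, so a negative value means a lower effect at 4w. For Tnfsf18, which passed the count filter through PQ 1w only, the difference was -6.58 ± 1.24 (adjusted p = 0.00201). Its size depends on the prior count because control 1w held 2 counts. The difference was -1.69 ± 0.21 for Tnfrsf23 (adjusted p = 0.000207) and -1.60 ± 0.26 for Tnfrsf12a (adjusted p = 0.000789). It was -1.24 for Tnfrsf11b, -0.61 for Ltbr and -0.49 for Tnfrsf1a.

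The difference was 3.47 ± 0.65 for Tnfrsf17 (adjusted p = 0.00189), which passed the count filter through PQ 4w only. It was 3.07 ± 0.55 for Tnfrsf13c (adjusted p = 0.00148), and 2.36 for Tnfrsf13c without PQ 4w replicate 3. It was 2.05 for Fasl, 1.53 for Ltb and 1.54 for Cd27, the last of which was 1.13 without PQ 4w replicate 3. It was 1.14 for Tnfrsf14, 1.11 for Tnfrsf25, 0.88 for Tnfrsf18 and 0.49 for Tnfsf10. It was 1.75 for Cd40lg and 2.11 for Lta, which also passed the count filter through PQ 4w only. Of these, Lta, Cd40lg, Tnfrsf14, Tnfrsf25 and Tnfsf10 missed the threshold when single libraries were left out. Lta missed it without control 1w replicate 2 or 3, control 4w replicate 1 or 2, PQ 1w replicate 2 or 3 or PQ 4w replicate 3 (adjusted p of 0.051 to 0.111). Cd40lg missed it without any library but PQ 1w replicate 3 or PQ 4w replicate 2 (0.05 to 0.11), and with no filter or in DESeq2 (0.0623 to 0.0808). Tnfrsf14 missed it without control 1w replicate 1 or 3, control 4w replicate 2, PQ 1w replicate 2 or PQ 4w replicate 3 (0.053 to 0.0774). Tnfrsf25 missed it without control 4w replicate 2, PQ 1w replicate 1 or 2 or PQ 4w replicate 1 (0.0534 to 0.0555). Tnfsf10 missed it without control 1w replicate 3, control 4w replicate 1 or 2, PQ 1w replicate 1 or PQ 4w replicate 3 (0.0609 to 0.086).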

How the results depend on the processing

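None of the called members turned direction under the alternatives run, and the members tested were called or lost as follows. Of 23 members called at 1w, 17 passed in every setting that tested them. Tnfrsf17 is among the 17, although at 1w it fell below the count filter in the fit of the 2 groups only and was not tested there. At 4w 3 of 8 passed in every setting (Tnfrsf9, Tnfrsf11a and Tnfrsf18), as did 12 of 17 for the difference between times. Between PQ 4w and PQ 1w 19 of 22 did so, and between control 4w and control 1w 0 of 1. When each library was left out in turn, the count was 19 to 26 at 1w, 4 to 10 at 4w, 12 to 17 for the difference, 19 to 24 between the PQ groups and 0 to 3 between the controls. At 4w a fit of the 2 groups only called 4 members, with Lta, Tnfrsf17, Tnfrsf4 and Tnfsf11 lost, and DESeq2 called 7, with Lta and Tnfrsf17 lost. Between control 4w and control 1w a fit of the 2 groups only called 4, DESeq2 called 2, and limma on log2 (FPKM + 0.1) called 0. The cause of these shifts was not tested. Members that passed at 4w only in single refits were Fas without control 4w replicate 3 (adjusted p = 0.0453), Ltbr without PQ 4w replicate 2 (0.0494) and Tnfrsf1b without PQ 4w replicate 2 (0.0427) or in DESeq2 (0.0389).

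Samples with the same replicate number correlated in their deviations from the group means at -0.35 to 0.282 over 18 pairs, 5 of them over 0.1. Pairs with different numbers ranged from -0.374 to 0.307. Deviations of the 3 libraries of a group balance one another, so these correlations cannot decide whether the numbers mark a pairing. A replicate block gave 22 members at 1w, 8 at 4w, 16 for the difference, 22 between the PQ groups and 2 between the controls, and under it Tnf (adjusted p = 0.0583) and Tnfsfm13 (0.056) missed the threshold at 1w, Cd40lg for the difference (0.0593), Tnfsf13b between the PQ groups (0.0521) and Tnfrsf12a between the controls (0.0552), while Tnfsf15 passed at 1w (0.0489). Without TMM the median log2 of all genes was at most 0.08 in any comparison. At this depth Tnfsf4, Cd70 and Tnfrsf8 did not reach the count filter and were not tested.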
